A study of Mus musculus with 16 samples.

Results

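Hepatocytes, the main cells of the liver, make most of the proteins that circulate in plasma, and they hold enzymes of amino acid breakdown and the urea cycle. Here 36 genes of this kind were followed in RNA sequencing of mouse hearts, out of 22098 genes in the 4 tables of the series. They were chosen by name, with their group means and fold changes in these data already known, so the values below are a description and none of them is a test. All 36 were listed in each table. By role they are 8 carrier proteins, 5 apolipoproteins, 9 protease inhibitors and their relatives, 9 proteins of clotting and adhesion, and 5 intracellular enzymes.

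Hearts came from mice after TAC, which usually stands for transverse aortic constriction, a narrowing of the aorta that raises the load on the left ventricle, or after SHAM surgery, and the animals had received NR (nicotinamide riboside, a precursor of NAD+) or vehicle. The 16 libraries form 4 groups: 5 NR TAC, 4 Vehicle TAC, 4 NR SHAM and 3 Vehicle SHAM. Strain, sex, age, dose and time after surgery are not given in the sources used here, and nothing states that each library is a separate animal, so the authors' p-values may measure only a technical spread. RNA was taken from 30 mg of heart per library, and the labels do not name the chamber.

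The tables hold group means of normalized counts, so a spread between libraries cannot be given and it cannot be read from them how many libraries of a group hold a transcript. To set the 4 groups side by side, each mean was divided by the sum of all means of its group and is given in parts-per-million (ppm). Means of a group taken from its 2 tables gave member levels within 0.998 to 1.003 of each other on this scale. A list of 10 cardiomyocyte markers, such as Myh6 and Myl2, summed to 53156 ppm in NR TAC, 57527 in Vehicle TAC, 55453 in NR SHAM and 55869 in Vehicle SHAM. Every group thus held heart muscle by these markers, and their sum does not tell the chamber. In bulk tissue, fewer cells of a type and less RNA per cell cannot be told apart.

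Liver transcription of these genes is driven, as textbook background, by factors that include FOXA, C/EBP and HNF4, which bind close to the gene starts. A window of 300 bases, from 250 before to 50 after the annotated start (RefSeq, GRCm38.p6), was matched for 25 of the 36 genes, in 27 windows. Promoters are shown for Alb and Gc, members of 1 protein family that stood among the 4 highest members in Vehicle TAC, and for Serpina1a and Serpina1b, close paralogs whose levels differed in the other hearts. Sequences run 5′ to 3′ on the gene's strand, and capitals mark 3 short motifs searched on both strands: GTTAAT (a short motif known from liver gene promoters), TGTTTGC (a FOXA core) and TTGCNNAA (a short form of the C/EBP site).
Alb, chr5:90460620-90460919, plus strand: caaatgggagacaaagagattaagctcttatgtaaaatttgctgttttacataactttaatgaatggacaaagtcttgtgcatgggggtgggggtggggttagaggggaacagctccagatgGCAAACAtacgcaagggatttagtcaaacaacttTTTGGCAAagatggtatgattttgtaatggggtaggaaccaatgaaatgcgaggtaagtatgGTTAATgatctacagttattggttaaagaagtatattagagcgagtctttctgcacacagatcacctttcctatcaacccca
Gc, chr5:89457849-89458148, minus strand: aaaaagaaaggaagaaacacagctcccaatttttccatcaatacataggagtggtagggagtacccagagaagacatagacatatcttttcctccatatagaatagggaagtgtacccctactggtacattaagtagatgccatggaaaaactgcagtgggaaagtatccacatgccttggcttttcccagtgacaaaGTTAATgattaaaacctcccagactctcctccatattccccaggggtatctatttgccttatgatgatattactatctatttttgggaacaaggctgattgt
Serpina1a, chr12:103863570-103863869, minus strand: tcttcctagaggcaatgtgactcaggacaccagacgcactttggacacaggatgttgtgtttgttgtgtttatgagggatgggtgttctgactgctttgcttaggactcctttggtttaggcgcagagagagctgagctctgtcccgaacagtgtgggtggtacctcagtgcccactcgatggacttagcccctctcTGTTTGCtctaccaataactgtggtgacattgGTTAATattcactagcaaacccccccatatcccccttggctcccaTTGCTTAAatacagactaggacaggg
Serpina1b, chr12:103738140-103738439, minus strand: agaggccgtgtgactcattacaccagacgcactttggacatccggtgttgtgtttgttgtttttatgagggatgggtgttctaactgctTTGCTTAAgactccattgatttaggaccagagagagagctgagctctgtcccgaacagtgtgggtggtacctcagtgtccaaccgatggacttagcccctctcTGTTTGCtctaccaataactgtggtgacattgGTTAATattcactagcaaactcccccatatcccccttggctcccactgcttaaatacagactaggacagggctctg
GTTAAT begins 32 bases before the start in Alb, 52 before it in Gc, 21 before it in Serpina1a and 26 before it in Serpina1b. In the paralogs TGTTTGC lies upstream of that site, 53 and 58 bases before the start of Serpina1a and Serpina1b. Alb carries it in reverse orientation 128 bases before its start, and Gc has no match to it in this window. The Serpina1a and Serpina1b windows are 89.3% identical, and among the 4 Serpina1 windows identity was 85.2% to 91.4%, so these 4 matches are not independent of each other.

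GTTAAT was found in 10 of the 25 genes (Alb, F2, Fga, Fgb, Gc, Serpina1a, Serpina1b, Serpina1c, Serpina1d and Vtn), or 37.0% of member windows, against 7.10% of all 32851 windows. Without the Serpina1 genes it was found in 6 of 21. TGTTTGC was found in 9 genes, among them Ahsg, Alb, Ambp, Apoa1 and Apob, or 33.3% of member windows against 5.07% of all. TTGCNNAA was found in 13 genes, or 48.1% of member windows against 10.8% of all. The variant TGTTTAC was found in 3 genes (11.1% of windows, against 3.65%) and TATAAA, the TATA box core, in 7 (25.9%, against 13.6%). The HNF4 site CAAAGTCCA had no match in a member window, against 0.475% of all windows. Motifs were picked with these counts in view. Member windows had a median GC content of 49.7% against 52.7% over all windows, and its part in the matches was not tested. A match describes letters in a window, not binding.

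Some members also lie side by side. By GENCODE M21 on GRCm38, 17 of the 36 fall into 6 clusters in which neighbours are under 1 Mb apart. The fibrinogen genes Fgg, Fga and Fgb occupy 42.1 kb of chromosome 3, from 83007724 to 83049863. Apoa1 and Apoc3 share 7.1 kb of chromosome 9 (46228580 to 46235636), and Ahsg, Hrg and Kng1 share 190.8 kb of chromosome 16 (22891277 to 23082078). Serpina1a to Serpina1d lie with Serpina3k in 618.0 kb of chromosome 12 (103728156 to 104346144). Itih4 and Itih3 are neighbours on chromosome 14, and Hp and Tat lie within 424.7 kb on chromosome 8.

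The 36 genes together made up 63.7 ppm in NR TAC, 1516 in Vehicle TAC, 40.7 in NR SHAM and 41.0 in Vehicle SHAM. By this total Vehicle TAC stood 36.9-fold above Vehicle SHAM, and the other 3 groups lay between 40.7 and 63.7 ppm. Outside Vehicle TAC most of the total came from 7 members described further on. The other 29 had 2.78 ppm in NR TAC, 1290 in Vehicle TAC, 10.05 in NR SHAM and 2.57 in Vehicle SHAM. Each of the 36 had its highest level in Vehicle TAC. Levels there ran from 9.43 ppm for Hrg to 590 ppm for Alb.

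**Figure D1:**
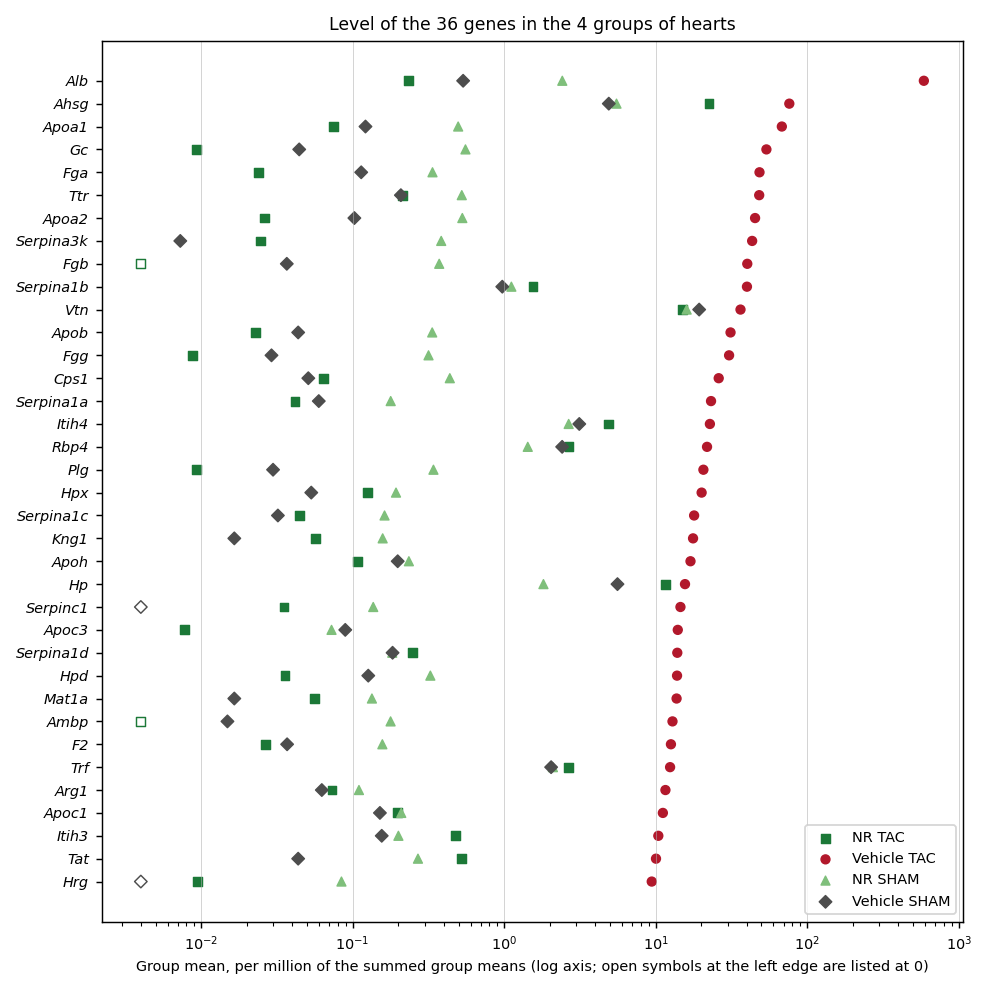
Group mean of each of the 36 genes ppm of the summed group means (log axis), with 1 symbol per group and genes ordered by their Vehicle TAC level. All red circles (Vehicle TAC) lie at 9.43 or more, while for most genes the other 3 groups lie below 1; open symbols mark means listed at 0.

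Among the carriers, Alb, the main protein of plasma, had 0.235 ppm in NR TAC, 590 in Vehicle TAC, 2.42 in NR SHAM and 0.536 in Vehicle SHAM. Gc, the vitamin D-binding protein, had 0.00938, 53.9, 0.556 and 0.0444 ppm in NR TAC, Vehicle TAC, NR SHAM and Vehicle SHAM. Both were low in all groups but Vehicle TAC, with NR SHAM next and NR TAC lowest. Ttr, which carries thyroxine and the retinol carrier, reached 48.3 ppm in Vehicle TAC and 0.208 to 0.526 elsewhere. Hpx, which binds free heme, reached 20.1 in Vehicle TAC and 0.0533 to 0.193 elsewhere. The remaining carriers, Ahsg, Hp, Rbp4 and Trf, were also present in the other groups and are described further on; Trf, at 12.5 ppm, was the lowest carrier in Vehicle TAC.

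The apolipoproteins coat lipoprotein particles. Apoa1, the main protein of HDL, had 0.0751 ppm in NR TAC, 68.1 in Vehicle TAC, 0.497 in NR SHAM and 0.122 in Vehicle SHAM. It was the highest of the 5 by level uncorrected for length, and Apoc1 was the lowest on that scale, with 0.198 ppm in NR TAC, 11.2 in Vehicle TAC, 0.209 in NR SHAM and 0.151 in Vehicle SHAM. Outside Vehicle TAC the Apoc1 levels lay close together. Apoa2, also of HDL, had 45.4 ppm in Vehicle TAC, Apob, the scaffold of VLDL and LDL, 31.2, and Apoc3, an inhibitor of lipoprotein lipase, 14.0. In NR TAC these 3 had 0.00776 to 0.0262 ppm.

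By level uncorrected for length, the protease inhibitors were led by Serpina3k, of the antichymotrypsin family, with 0.0246 ppm in NR TAC, 43.4 in Vehicle TAC, 0.384 in NR SHAM and 0.00729 in Vehicle SHAM. On the same scale the lowest was Itih3, a heavy chain of the inter-alpha-trypsin inhibitor family, with 0.475 ppm in NR TAC, 10.4 in Vehicle TAC, 0.201 in NR SHAM and 0.156 in Vehicle SHAM. Serpinc1, which encodes antithrombin, had 14.6 ppm in Vehicle TAC and was listed at 0 in Vehicle SHAM. Ambp, the precursor of bikunin, had 12.9 in Vehicle TAC and was listed at 0 in NR TAC. Exons of Serpinc1 overlap those of Zbtb37 on the opposite strand over 34.4% of their length, and whether counting used strand is not given in the sources used here.

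Serpina1a to Serpina1d encode alpha-1-antitrypsins, inhibitors of neutrophil elastase, and are near copies whose reads the counting could split between them, so their separate levels are uncertain. In Vehicle TAC they had 23.2 (Serpina1a), 40.1 (Serpina1b), 18.0 (Serpina1c) and 13.9 ppm (Serpina1d). In the other hearts Serpina1b stood above the rest, with 1.55 ppm in NR TAC, 1.12 in NR SHAM and 0.972 in Vehicle SHAM. Serpina1a, whose promoter is printed beside it above, had 0.0417, 0.178 and 0.0598 ppm in NR TAC, NR SHAM and Vehicle SHAM. Serpina1c and Serpina1d had 0.0321 to 0.250 ppm in those groups. The GENCODE model of Serpina1b runs from 103728156 to 103830373, spans Serpina1d and begins outside the printed window. Which of its exons held the reads cannot be seen here. The level of Serpina1b therefore cannot be tied to the printed promoter.

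Among clotting and adhesion proteins, the fibrinogen chain Fga had 0.0239 ppm in NR TAC, 48.5 in Vehicle TAC, 0.337 in NR SHAM and 0.114 in Vehicle SHAM. Its partners Fgb and Fgg had 40.3 and 30.6 ppm in Vehicle TAC, and Fgb was listed at 0 in NR TAC. The 3 chains are assembled into 1 protein, and per kb of exon they had 16.1 (Fga), 10.6 (Fgb) and 14.6 ppm (Fgg) in Vehicle TAC. Hrg, a histidine-rich plasma glycoprotein, was lowest by uncorrected level, with 0.00943 ppm in NR TAC, 9.43 in Vehicle TAC and 0.0844 in NR SHAM, and was listed at 0 in Vehicle SHAM. Plg (plasminogen), Kng1 (kininogen), Apoh, which binds phospholipid, and F2 (prothrombin) had 12.6 to 20.7 ppm in Vehicle TAC. They had 0.00938 to 0.108 ppm in NR TAC.

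The 5 enzymes are not secreted. Cps1, which makes carbamoyl phosphate for the urea cycle, had 0.0641 ppm in NR TAC, 26.1 in Vehicle TAC, 0.438 in NR SHAM and 0.0510 in Vehicle SHAM. Tat, the first enzyme of tyrosine breakdown, was the lowest enzyme in Vehicle TAC by uncorrected level, with 0.523 ppm in NR TAC, 10.1 in Vehicle TAC, 0.270 in NR SHAM and 0.0437 in Vehicle SHAM. Unlike Cps1, Tat had a higher mean in NR TAC than in NR SHAM. Hpd, also of tyrosine breakdown, Mat1a, which makes S-adenosylmethionine, and Arg1, the arginase of the urea cycle, had 11.6 to 13.9 ppm in Vehicle TAC. None of these 3 exceeded 0.326 ppm elsewhere.

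Genes of different length can be ranked only per kilobase of exon. On that scale Alb again led in Vehicle TAC, with 252 ppm per kb, followed by Apoa2 (84.5), Apoa1 (55.1), Ttr (40.7) and Ahsg (34.7). Length moved single members: Apob, with 13.934 kb of exon, ranked 12 by level and 35 per kb. Apoc1, with 0.744 kb, ranked 33 by level and 12 per kb. Serpinc1 was last per kb at 1.71. Within roles, the lowest per kb were Apob among the apolipoproteins, F2 (2.75) among the clotting proteins and Mat1a (3.97) among the enzymes. The 5 highest members held 55.2% of the member total in Vehicle TAC by level and 60.1% per kb, and Alb alone held 38.9% by level.

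In vehicle hearts, TAC against SHAM gave a higher mean for 36 of 36 members. Fold changes are given as log2 of the means of normalized counts, each plus 1, which understates changes of low genes. The members had a median of 7.97 (range 0.76 to 10.42), against 0.01 over all 20540 genes. Medians by role were 5.69 for carriers, 8.37 for apolipoproteins, 8.01 for protease inhibitors, 8.51 for clotting and adhesion proteins and 7.13 for enzymes. At least an 8-fold difference was found for 32 members; 1.74% of all genes were that much higher. None of the 36 was 8-fold lower, as 0.00974% of all genes were. These means chose the members, so the shift is no finding of its own.

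The authors' test did not call these differences. Of the 36 members, 0 in the authors' deposited table had a DESeq adjusted p below 0.05, where 0.0487% of all genes did. An unadjusted p below 0.05 was given for 1 member, Serpina3k (0.0465, in the authors' deposited table), and for 4.89% of all genes. For Alb the authors' deposited table gave means of 24938 normalized counts in Vehicle TAC and 25.1 in Vehicle SHAM, with an unadjusted p of 0.0733. Member p-values there reached up to 0.499, for Hp, with a median of 0.113. The spread among the 4 Vehicle TAC libraries cannot be seen from the group means.

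**Figure D2:**
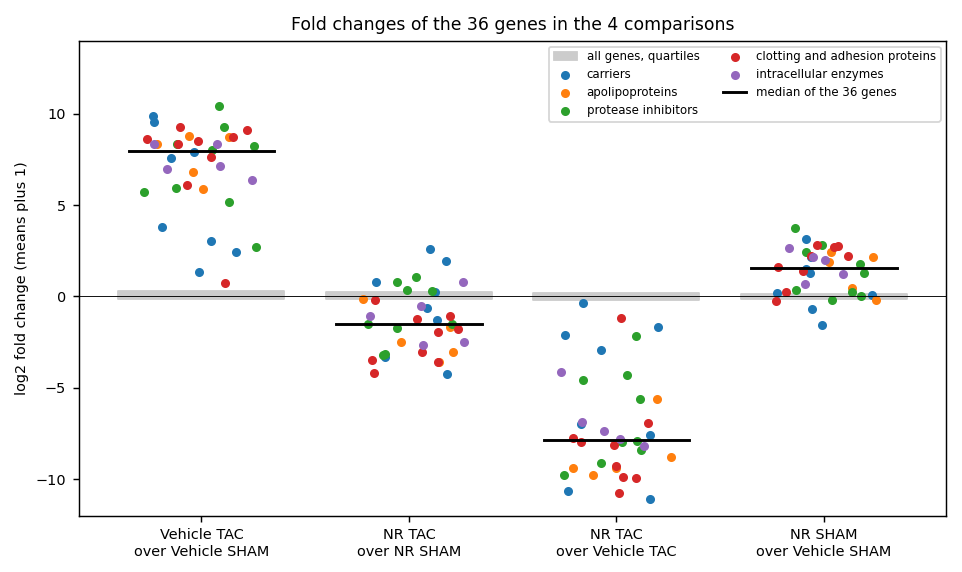
Log2 fold change (means plus 1) of each of the 36 genes in the 4 comparisons, with 1 point per gene coloured by role, a black line at the median and a grey band over the quartiles of all genes. Medians lie at 7.97, −1.53, −7.87 and 1.57, while the grey bands stay near 0.

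NR against vehicle in TAC hearts uses the same Vehicle TAC libraries, so its values are not independent of the comparison above. Every member had a lower mean in NR TAC, with a median log2 fold change of −7.87 (range −11.08 to −0.34) against 0.00 over all 21420 genes. At least an 8-fold lower mean was found for 30 members and for 1.35% of all genes, and an 8-fold higher one for 0 members and 0.0607% of all genes. The authors' deposited table listed Alb at 10.7 normalized counts in NR TAC and 25364 in Vehicle TAC (unadjusted p 0.0142). An adjusted p below 0.05 (DESeq, the authors' deposited table) was reached by 0 of 36 members and 0% of all genes. Unadjusted, 20 members and 2.61% of all genes did.

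Hearts that received NR showed no such height after TAC. In NR TAC against NR SHAM 27 of 36 members had the lower mean, with a median log2 fold change of −1.53 (range −4.23 to 2.58) against 0.02 over all 20946 genes. Alb had 10.1 normalized counts in NR TAC and 111 in NR SHAM in the authors' deposited table (unadjusted p 0.00616). Most of these are differences between very low means. Over the 8 members with a mean of at least 50 over the 2 groups the median was 0.57, the opposite sign. Those 8 were Alb, at −3.33, and Ahsg, Hp, Itih4, Rbp4, Serpina1b, Trf and Vtn. The last 7 are described further on as exceeding the Alb proportion, so the filter also changed the kind of member. Of the 36 members, 0 passed in the authors' deposited table a DESeq adjusted p of 0.05 (0.549% of all genes), and 7 had an unadjusted p below 0.05 (6.98% of all genes). Those 7 were Alb, Apoa2, Serpina3k, Ambp, Fgb, Fgg and Hpd. At least 8-fold lower means were found for 10 members and 0.0812% of all genes, and 8-fold higher means for 0 members and 0.201% of all genes.

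Without TAC, NR SHAM had the higher mean than Vehicle SHAM in 31 of 36 members, with a median of 1.57 (range −1.58 to 3.77) against 0.00 over all 19917 genes. Alb had 107 normalized counts in NR SHAM and 23.1 in Vehicle SHAM in the authors' deposited table (unadjusted p 0.101). Here too the 7 members with a mean of at least 50 had a median of the other sign, −0.20. They were Alb, at 2.16, and Ahsg, Hp, Itih4, Rbp4, Trf and Vtn. A DESeq adjusted p below 0.05 was given in the authors' deposited table to 0 of 36 members and 0% of all genes. Tat (0.00685) and Serpinc1 (0.0149) had an unadjusted p below 0.05 in the authors' deposited table, beside 1.88% of all genes. At least an 8-fold higher mean was found for 2 members, Gc and Serpina3k, and 0.0301% of all genes, and an 8-fold lower one for 0 members and 0.0201% of all genes.

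The low signal of NR SHAM was compared in makeup with that of Vehicle TAC. Over 28 members other than Alb and the 7 described next, each member's ratio to Alb was taken in both groups. It was higher in NR SHAM than in Vehicle TAC for all 28, by a median of 2.52 times, and was within 2-fold for 4. On a log2 scale the difference ran from 0.34 for Apoc3 to 2.71 for Tat. All 28 ratios share Alb as their denominator, so a lower Alb alone would move them together. The levels of the 28 ranked alike in NR SHAM and Vehicle TAC (Spearman rho 0.74 across genes, which share length and library). Over the 26 members not listed at 0 in the group, rho with Vehicle TAC was −0.01 for Vehicle SHAM and −0.33 for NR TAC. With Alb included, the 29 members outside the 7 had a median of 0.0417 ppm in NR TAC and 0.0510 in Vehicle SHAM. In NR SHAM it was 0.235. Ranks in NR TAC and Vehicle SHAM thus rest on few reads, and the genes ranked differ between groups.

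Of the 36 members, 7 exceeded in NR TAC, and 6 of these also in Vehicle SHAM, the amount that goes with Alb in Vehicle TAC. The yardstick was a member's Vehicle TAC mean multiplied by the Alb ratio of the 2 groups; a member exceeded it with a mean of at least 50 normalized counts and at least 10 times that amount. In NR TAC these were Ahsg, Hp, Itih4, Rbp4, Serpina1b, Trf and Vtn. In Vehicle SHAM 6 of them met the rule, and Serpina1b lay just under the minimum mean with 45.6. In NR TAC the next highest mean was 23.8 normalized counts, for Tat. Some members kept out by the minimum mean passed 10 times the Alb-proportional amount. Among them were Tat at 130 times and Itih3 at 114 times, against 97.1 for Serpina1b. The members outside the 7 thus do not all follow Alb. In NR SHAM, where Alb itself was higher, the ratio to the Alb-proportional amount was 6.78 for Serpina1b and 15.97 to 107 for the other 6. The 7 made up 95.6% of the member total in NR TAC, 14.9% in Vehicle TAC, 75.3% in NR SHAM and 93.7% in Vehicle SHAM. The other 29 together had 2.78 ppm in NR TAC, 1290 in Vehicle TAC, 10.05 in NR SHAM and 2.57 in Vehicle SHAM.

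**Figure D3:**
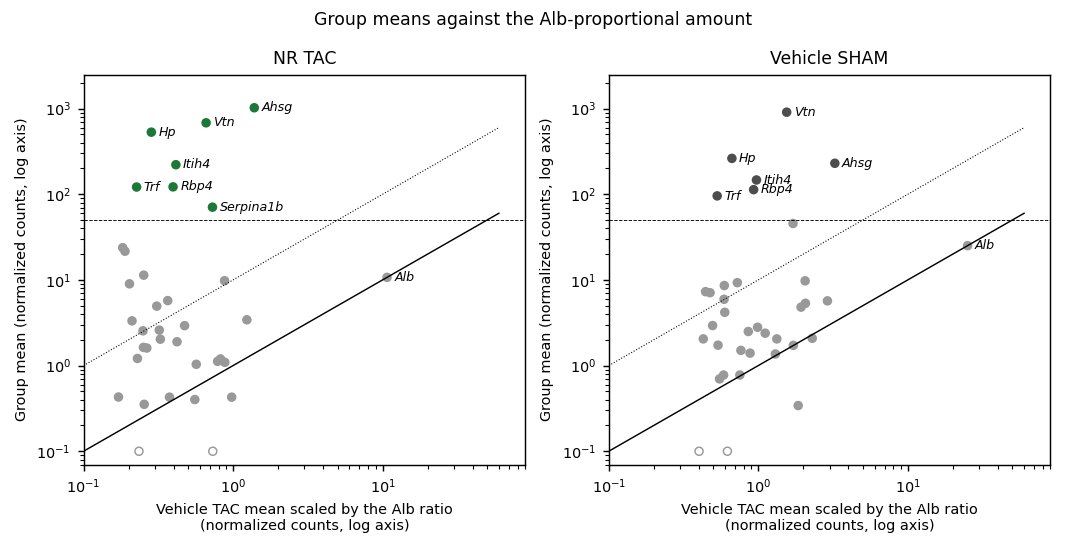
Group mean of each member (normalized counts, log axes) in NR TAC and in Vehicle SHAM against its Vehicle TAC mean scaled by the Alb ratio of the 2 groups. The solid line marks equality, the dotted line 10 times that amount and the dashed line a mean of 50; 7 named genes in NR TAC and 6 in Vehicle SHAM lie above both limits, and open points are listed at 0.

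Vtn, vitronectin, a protein of matrix and plasma that binds integrins, had the most even levels: 15.0 ppm in NR TAC, 36.3 in Vehicle TAC, 16.03 in NR SHAM and 19.4 in Vehicle SHAM. It alone made up 47.3% of the summed member means in Vehicle SHAM. Its mean there was 587 times the Alb-proportional amount. Trf, the iron carrier transferrin, had 2.67 ppm in NR TAC, 12.5 in Vehicle TAC, 2.10 in NR SHAM and 2.04 in Vehicle SHAM, so the groups other than Vehicle TAC differed little. Of Trf's exon bases, 63.5% are shared with the overlapping model Gm20425 on the same strand, so its count is uncertain.

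Ahsg, fetuin-A, a plasma protein that keeps calcium phosphate in solution, had 22.5 ppm in NR TAC, 76.3 in Vehicle TAC, 5.52 in NR SHAM and 4.91 in Vehicle SHAM. Both TAC groups lay above their SHAM groups. Hp, haptoglobin, which captures free haemoglobin and rises in the acute phase, had 11.7 ppm in NR TAC, 15.6 in Vehicle TAC, 1.82 in NR SHAM and 5.60 in Vehicle SHAM. In NR TAC its mean was 1870 times the Alb-proportional amount. Itih4, another inter-alpha-trypsin inhibitor heavy chain and acute phase protein, had 4.87 ppm in NR TAC, 22.8 in Vehicle TAC, 2.67 in NR SHAM and 3.13 in Vehicle SHAM. In NR hearts after TAC, log2 fold changes against NR SHAM were 1.93 for Ahsg, 2.58 for Hp and 0.77 for Itih4, opposite in sign to Alb (−3.33). The unadjusted p-values of these 3 in the authors' deposited table were 0.142, 0.295 and 0.411, so none passed.

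Rbp4, the retinol carrier, which adipocytes also make, had 2.68 ppm in NR TAC, 21.9 in Vehicle TAC, 1.43 in NR SHAM and 2.42 in Vehicle SHAM. Outside Vehicle TAC its order, NR TAC, then Vehicle SHAM, then NR SHAM, was that of Hp. Markers of other cell types also differed between these groups. The 6 atrial markers, all listed, summed to 1764 ppm in NR TAC, 1441 in Vehicle TAC, 159 in NR SHAM and 311 in Vehicle SHAM. Nppa, the atrial natriuretic peptide gene, carried most of the Vehicle TAC sum with 1165 ppm. The other 5 summed to 1126 ppm in NR TAC, 276 in Vehicle TAC, 94.7 in NR SHAM and 211 in Vehicle SHAM, and among them Bmp10 had 152 ppm in NR TAC and 1.56 in Vehicle TAC. Adipoq, the adipocyte hormone adiponectin, had 4.34 ppm in NR TAC, 1.77 in Vehicle TAC, 1.22 in NR SHAM and 8.33 in Vehicle SHAM. The whole adipocyte list, with 7 of 8 genes in the vehicle table and all 8 in the NR table, summed to 258, 267, 232 and 277 ppm in NR TAC, Vehicle TAC, NR SHAM and Vehicle SHAM. Fabp4, which endothelial cells also express, made up most of these sums. Without it the list had 28.3 ppm in NR TAC, 11.9 in Vehicle TAC, 8.98 in NR SHAM and 47.9 in Vehicle SHAM. Their part in the levels of these 7 members was not tested.

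Other genes known for the liver were counted from 8 lists of 109 genes, which also hold many genes that the heart itself expresses, such as C3, Apoe and Glul. In Vehicle TAC against Vehicle SHAM, 14 of 14 listed clotting factors and inhibitors had the higher mean (median log2 fold change 5.63), from Pros1, the cofactor protein S, at 0.23 up to values such as 8.45 for Serpinf2, the plasmin inhibitor. Bile acid synthesis and transport genes were higher in 9 of 10 (median 5.61), with 7.43 for the uptake carrier Slco1b2 and −0.18 for Amacr, a racemase of many tissues. Other lipoprotein genes were higher in 11 of 11 (4.30), urea cycle and amino acid enzymes in 20 of 21 (3.15) and gluconeogenesis and sugar enzymes in 9 of 9 (2.98). Acute phase proteins were higher in 12 of 12 (2.88), liver transcription factors in 9 of 10 (1.48) and complement proteins in 18 of 18 (1.15). Of all genes, 51.9% had the higher mean in Vehicle TAC. A DESeq adjusted p below 0.05 was reached in the authors' deposited table by 0 genes of these lists.

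Nuclear factors of hepatocytes were among them. Hnf4a, the factor most closely tied to hepatocyte identity, had 4.99 ppm in Vehicle TAC and was listed at 0 in Vehicle SHAM. Prox1, which the heart and lymphatic vessels express as well, had 80.7 in Vehicle TAC and 103 in Vehicle SHAM. In NR TAC against NR SHAM, where fewer genes of most lists were listed (6 of 15 for the clotting factors), the lists had medians between −0.41 for bile acid genes and 0.75 for complement proteins. The complement protease gene Masp1 passed there in the authors' deposited table (DESeq adjusted p 0.0306), as the only called gene of these lists in any of the 4 tables.

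**Figure D4:**
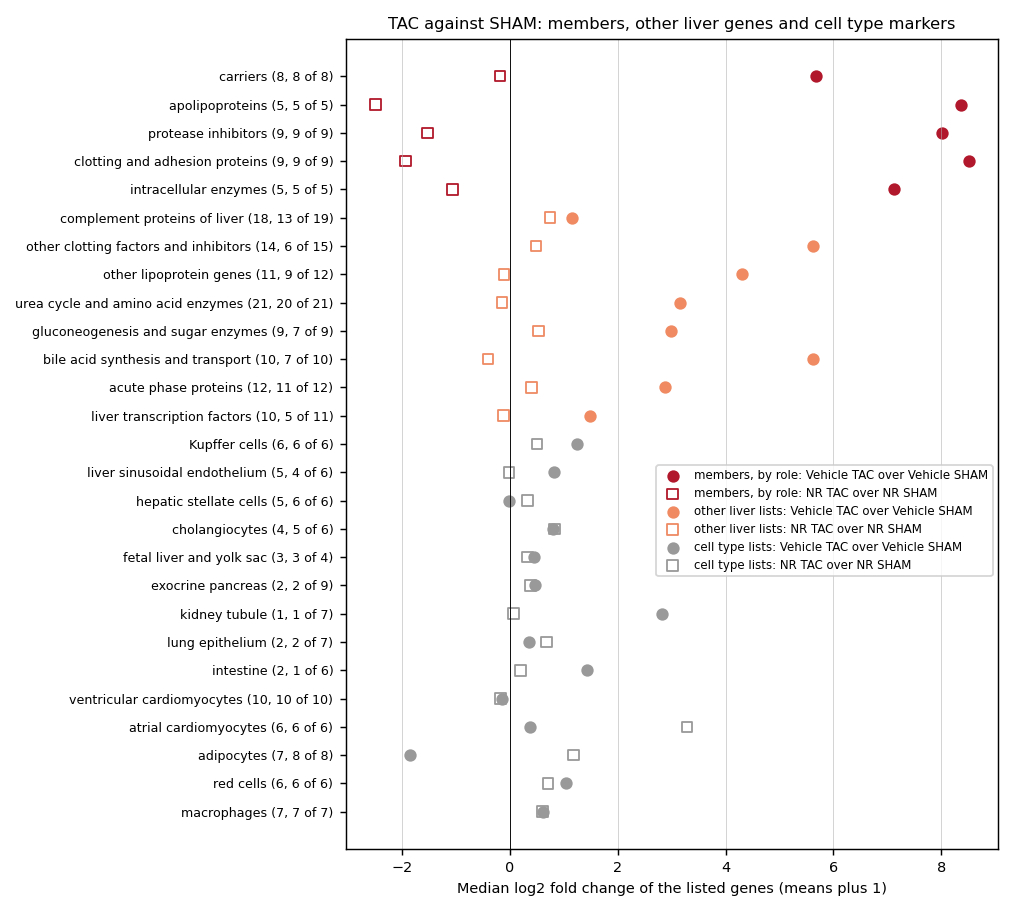
Median log2 fold change (means plus 1) of TAC against SHAM in vehicle hearts (filled circles) and in NR hearts (open squares) for the members by role, 8 other liver lists and 14 cell type lists. Counts in brackets give the genes listed in the vehicle and NR tables out of the list; the 5 member roles lie at 5.69 to 8.51 in vehicle hearts and between −2.49 and −0.19 in NR hearts.

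Markers of the other cells of liver were low in all groups. Kupffer cell markers, all 6 listed, summed to 10.98 ppm in NR TAC, 5.31 in Vehicle TAC, 3.31 in NR SHAM and 3.92 in Vehicle SHAM. Clec4f, the one most confined to Kupffer cells, had 0.648 ppm in Vehicle TAC and 0.0311 to 0.0562 elsewhere. Cd5l, also of Kupffer cells and other macrophages, had 0.813 ppm in Vehicle TAC and 0.0232 to 0.0881 elsewhere. The rest of the Kupffer list did not share this height. Marco had 4.73 ppm in NR TAC and 0.167 in Vehicle TAC, Vsig4 3.56 and 1.78, and Timd4 1.53 and 0.832. Folr2 was near even, with 1.02 ppm in NR TAC and 1.07 in Vehicle TAC. Sinusoidal endothelial markers summed to 9.62, 9.77, 6.35 and 6.53 ppm in NR TAC, Vehicle TAC, NR SHAM and Vehicle SHAM. Gpr182 made up most of these sums. Without it they were 1.02, 2.87, 1.12 and 1.09 ppm, highest in Vehicle TAC. Oit3, at 0.359 ppm in Vehicle TAC, was not listed in the NR table, and Fcn3 was in neither. Stellate cell markers summed to 17.6, 22.3, 16.6 and 18.6 ppm in the same groups. Cholangiocyte markers summed to 12.99, 32.1, 5.38 and 6.45 ppm in the same groups, with Epcam and Cldn4 not listed in the vehicle table. Without Spp1, the osteopontin gene, which many cells express, they summed to 7.02, 9.39, 4.84 and 5.96 ppm. Of other organs, 2 of 9 pancreatic, 1 of 7 kidney, 2 of 7 lung and 2 of 6 intestinal markers were listed in the vehicle table, with sums in Vehicle TAC of 1.41, 0.370, 0.416 and 0.649 ppm. Afp, of fetal liver, was not listed there. In Vehicle SHAM the pancreatic, kidney, lung and intestinal sums were 0.499, 0.0291, 0.211 and 0.396 ppm. Most markers of these organs were not listed, and the source of the member transcripts was not tested.

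Of 19044 genes with a symbol in both tables that pair TAC with SHAM, 142 (0.746%) had at least 1 ppm in Vehicle TAC and at least 8-fold more there than in NR TAC and than in Vehicle SHAM. Of these, 31 were members, so that all but Ahsg, Hp, Itih4, Trf and Vtn met this description, and 33 belonged to the other liver lists. A further 27 genes of those lists were in the vehicle table of that kind but not in the NR one and could not be counted, and 19 of them, Hnf4a included, had at least 1 ppm in Vehicle TAC and at least 8-fold more than in Vehicle SHAM. No gene of the cell type lists was counted, since Clec4f and Cd5l, with differences of that size, lay below 1 ppm. The members made up 21.8% of these genes and 59.6% of their summed level of 2269 ppm in Vehicle TAC. Since members were chosen for this pattern, the share says how far they cover it and no more.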

How the data were processed

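Per the labels' protocols, heart RNA was read on a BGISEQ-500. TopHat, HTSeq and DESeq on GRCm38 were used per the submitters' processing notes, which give no versions or settings. The authors deposited 4 tables, each with a mean per group for 2 groups, in counts scaled by size factors (a normalized signal, per the file headers and values), the ratio of the means plus 1 as fold, its log2, and the p-value and adjusted p-value of their DESeq test. Recomputed log2 values matched the deposited ones. Depth per library is not given in the sources used here, which leaves out counting intervals.

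Members and lists were chosen with earlier results of these data known. Levels in parts-per-million divide a mean by the sum of its group's means, from the table that pairs TAC with SHAM under the same treatment; levels from separately normalized tables were not tested against each other. Of genes with the same symbol, that with the largest summed means was used. No new test was run: calls are the authors' adjusted p below 0.05, over all genes of a table. Exon lengths and positions are from GENCODE M21, and 36 of 36 members matched. Tables were handled with pandas 2.3.3 in Python 3.11.15; the Alb rule was tested on simulated data. Full values are given for Alb, the highest and lowest member of each role, the members beyond the Alb proportion and the Serpina1 paralogs; further members and list genes are given by range or chosen after their values were seen. Some list genes are not reported here. Alternatives changed the threshold, the pseudocount of 1, the minimum mean, the source table, the yardstick and the members kept.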

Additional observations from a re-analysis of the deposited data

How the results depend on the processing

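Of 48 alternatives over 14 results, 36 left the value within 1.5 times of the reported one, the limit used because group means carry no spread. The counts of members by an unadjusted p below 0.05 were 7 for TAC in NR hearts, 1 for TAC in vehicle hearts, 20 for NR in TAC hearts and 2 for NR in SHAM hearts, where 0 had passed the adjusted p. With a pseudocount of 10 the median log2 fold changes in that order were −0.50, 5.74, −5.79 and 0.59, and with 0.1 the median for NR in TAC hearts was −8.46. Over members with a mean of at least 50 the median turned to 0.57 for TAC in NR hearts and to −0.20 for NR in SHAM hearts. Fewer members, 8 and 7, enter there: Alb and members beyond the Alb proportion. Without Alb the members summed to 926 ppm in Vehicle TAC. Leaving out replicates was not run, because the tables hold group means. No paired analysis was possible because the library titles state no pairing and values per library were not used here. Depth per library is not given in the sources used here, and the lowest group means, below 1 normalized count, rest on few reads.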

Other observations

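The 78 genes that shared the Vehicle TAC height but belonged to no list include 8 major urinary protein genes and 12 cytochrome P450 genes, by their symbols. The highest of them, chosen after their values were seen, was Mup17, a urinary protein gene of a near-identical family, with 0.0752 ppm (parts-per-million of the summed group means) in NR TAC, 100 in Vehicle TAC, 1.54 in NR SHAM and 0.110 in Vehicle SHAM. Cyp2c29, a liver P450, was listed at 0 in NR TAC and had 44.2 ppm in Vehicle TAC. Psca, a surface antigen gene known from prostate, bladder and stomach, was second, with 5.24 ppm in NR TAC, 63.6 in Vehicle TAC, 1.46 in NR SHAM and 2.35 in Vehicle SHAM.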
